A study of Rattus norvegicus with 12 samples.

Results

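RNA sequencing of adult rat ventricular myocytes (ARVMs), the contractile cells of the ventricle, was used here to follow the phospholipase C isozymes. The genes were chosen by name. They are Plcb1, Plcb3, Plcb4, Plcd1, Plcd3, Plce1, Plcg1, Plch1, Plcl1, and Plcl2, which make 10 of the 17301 gene names in the files and hold 1 transcript row each of 18752. The cells came from Sprague Dawley rats and were kept in culture with 2,3-butanedione monoxime. In the control group, 6 samples received an adenovirus for enhanced green fluorescent protein (Ad-GFP). In the other group, 6 samples received an adenovirus in which the cytomegalovirus promoter drives human NR4A2, a nuclear receptor (Ad-h-NR4A2). Both groups thus carried a virus, at a multiplicity of infection of 50, and RNA was collected 48 h later. Both groups carry the same sample numbers, 24 to 29.

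Phospholipases C cut the membrane lipid PIP2 into IP3, which releases calcium from stores, and diacylglycerol, which activates protein kinase C. The beta isozymes answer to receptors coupled to the G protein Gq, such as those for norepinephrine, endothelin, and angiotensin, and in cardiac myocytes this route is known for its part in hypertrophic growth. The gamma isozymes are driven by tyrosine kinases, the epsilon isozyme by small GTPases of the Ras and Rap families, and the delta and eta isozymes respond to calcium. The PLC-like proteins encoded by Plcl1 and Plcl2 have the domains of the family but do not cleave PIP2. They bind IP3 and protein phosphatases.

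Values are FPKM, in which the fragments of a transcript are scaled to its length and to the mapped fragments of the sample, as the authors calculated them. The depth implied by the low values was 18800000 to 28000000 fragments per sample. Nr4a2, the transduced gene, went from 0.884 ± 0.309 (SD, n = 6) to 524 ± 70.3 FPKM (SD, n = 6) counted on the rat transcript, and no sample went against its label. The 8 cardiomyocyte markers summed to 33644 to 41098 FPKM in Ad-GFP samples and to 29695 to 35794 in Ad-h-NR4A2 samples. The fibroblast, endothelial, and smooth muscle marker lists each summed to at most 30.4 FPKM in any sample, and the fibroblast marker Col1a2 was listed at 0 in all 12. The list of 6 leukocyte markers moved with the groups, from 6.96 to 18.0 FPKM in Ad-GFP samples to 39.1 to 50.2 in Ad-h-NR4A2 samples. Most of this was Csf1r, with means of 10.1 and 40.2 FPKM, and without it the list summed to 0.919 to 4.05 and 1.03 to 6.81 FPKM. Its part in the results was not tested.

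The question was which phospholipase C genes respond to NR4A2. Of the 10 genes, all above 0 in every sample, 4 were upregulated (Plcl1, Plch1, Plcb1, and Plcb4) and 1 was downregulated (Plcd3). A gene was called at an adjusted p below 0.05 (limma on log2(FPKM + 0.1), two-sided, Benjamini-Hochberg adjustment over 10950 genes) together with a ratio of group means of at least 1.5 in either direction. By this rule 15.2% of all genes tested were called, 7.94% upregulated and 7.24% downregulated. A further 2 genes, Plcb3 and Plcl2, passed the test with lower levels in Ad-h-NR4A2 samples but changed by less than 1.5-fold, and 3 genes (Plcd1, Plce1, and Plcg1) did not pass. By the adjusted p alone, 7 of the 10 genes passed, compared with 40.9% of all genes. Of these, 4 were higher (19.3% of all genes) and 3 lower (21.7% of all genes). With a fold limit of 2, 3 of the 10 genes were called (7.33% of all genes). The groups did not overlap for 5 of the 10 genes (21.5% of all genes), 4 of them higher (10.9%) and 1 lower (10.6%) in Ad-h-NR4A2 samples. The median log2 fold change over the 10 genes was -0.10 and that of all genes tested was -0.02.

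**Figure D1:**
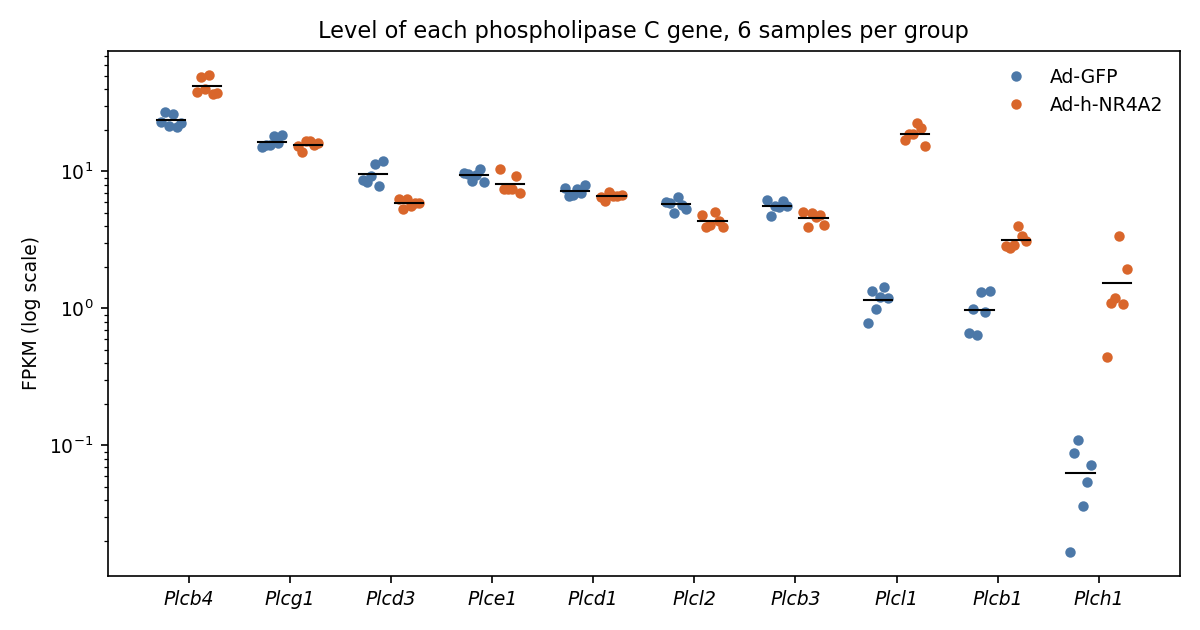
FPKM of each phospholipase C gene on a log axis, with 1 point per sample, 6 samples per group, and a black line at each group mean. Plcl1, Plcb1, and Plch1 were the lowest genes in Ad-GFP samples and rose, and Plcl1 reached a mean of 18.9 FPKM.

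**Figure D2:**
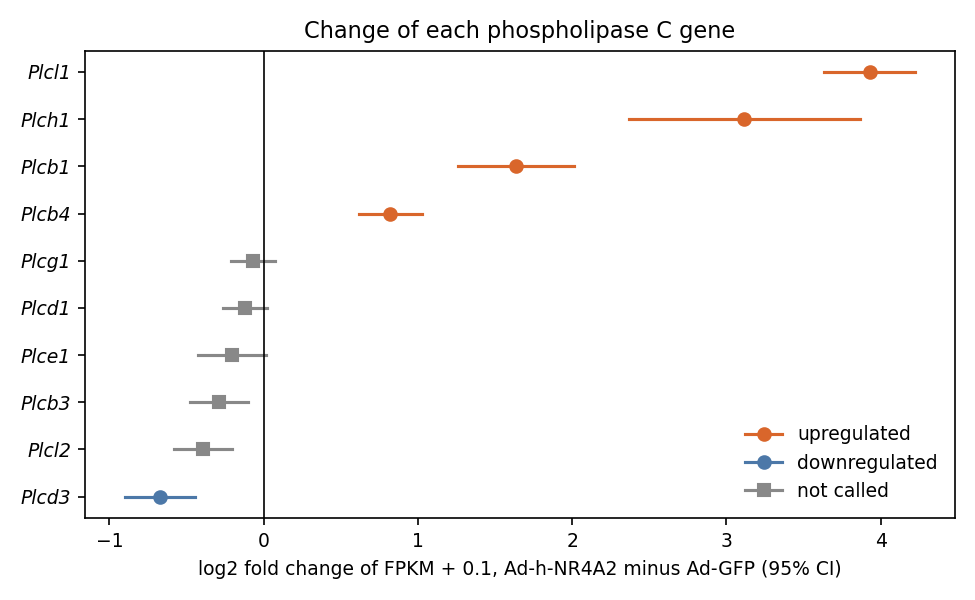
Log2 fold change of FPKM + 0.1, Ad-h-NR4A2 minus Ad-GFP, for each gene, with its 95% confidence interval from limma. Orange circles are upregulated genes, the blue circle is downregulated, and gray squares were not called. The intervals of Plcg1, Plcd1, and Plce1 include 0.

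Plcl1, a PLC-like gene whose protein lacks catalytic activity, had the largest log2 fold change of the 10 genes, although with a pseudocount of 0.01 that of Plch1 was larger (4.30 against 4.03). In the Rn5 build used by the files, it spans 61824561 to 62158071 of chromosome 9. The lowest, median, and highest values were 0.779, 1.20, and 1.44 FPKM in Ad-GFP samples and 15.3, 18.8, and 22.8 FPKM in Ad-h-NR4A2 samples. The lowest Ad-h-NR4A2 value was thus far above the highest Ad-GFP value, and the Ad-h-NR4A2 sample was higher in 6 of 6 same-numbered pairs. Means rose from 1.16 ± 0.240 (SD, n = 6) to 18.9 ± 2.66 FPKM (SD, n = 6), a ratio of 16.3. The log2 fold change was 3.93 (limma, SE 0.14 and adjusted p = 1.9e-10), which ranked 18 of 10950 genes from the top. The fragments behind these values numbered 87 to 200 after Ad-GFP and 1777 to 2724 after Ad-h-NR4A2. In bulk RNA, more cells with a transcript and more of it per cell cannot be told apart.

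Plcl2, the other PLC-like gene (chromosome 9, 1740384 to 1972816), went the other way. It had 5.00, 5.79, and 6.52 FPKM as the lowest, median, and highest Ad-GFP values and 3.93, 4.21, and 5.02 in Ad-h-NR4A2 samples. The groups overlapped at a single point, since the highest Ad-h-NR4A2 sample, number 27, lay just above the lowest Ad-GFP sample, number 26. Its log2 fold change was -0.39 (limma, SE 0.09 and adjusted p = 0.00272), and it was lower in 6 of 6 pairs. Within a sample, Plcl1 amounted to 0.129 to 0.255 of Plcl2 FPKM after Ad-GFP and to 3.52 to 4.80 times Plcl2 after Ad-h-NR4A2. The order of the pair was therefore inverted in all samples. The log2 ratio differed by 4.45 between groups (SE 0.16, two-sided exact permutation test over 924 splits, p = 0.00216, the smallest that 6 against 6 samples allow, and 0.00271 adjusted over the 5 pairs of one subfamily). No scaling of a sample can alter such a ratio. These 5 ratios were chosen after the values were seen.

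The windows around the gene starts are printed for 3 genes, since both PLC-like genes moved in opposite directions and Plch1 had the largest ratio of means. Each runs from 250 bases before to 50 after the start in RefSeq (GRCr8), with every CG dinucleotide in capitals.
Plcl1, chr9:64395726-64396025, plus strand: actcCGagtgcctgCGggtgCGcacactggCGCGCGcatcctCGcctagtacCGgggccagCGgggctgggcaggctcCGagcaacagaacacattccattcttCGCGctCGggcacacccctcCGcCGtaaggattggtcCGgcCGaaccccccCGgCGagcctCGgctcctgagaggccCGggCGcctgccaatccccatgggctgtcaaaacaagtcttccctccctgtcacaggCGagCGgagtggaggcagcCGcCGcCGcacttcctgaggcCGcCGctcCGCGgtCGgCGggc
Plcl2, chr9:3529821-3530120, plus strand: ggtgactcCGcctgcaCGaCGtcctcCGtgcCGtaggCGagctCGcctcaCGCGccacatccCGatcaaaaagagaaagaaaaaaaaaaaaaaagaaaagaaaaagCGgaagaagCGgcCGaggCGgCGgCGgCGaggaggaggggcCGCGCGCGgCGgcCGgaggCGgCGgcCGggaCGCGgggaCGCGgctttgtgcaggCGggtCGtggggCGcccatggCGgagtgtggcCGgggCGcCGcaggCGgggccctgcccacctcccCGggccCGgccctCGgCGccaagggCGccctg
Plch1, chr2:150387749-150388048, minus strand: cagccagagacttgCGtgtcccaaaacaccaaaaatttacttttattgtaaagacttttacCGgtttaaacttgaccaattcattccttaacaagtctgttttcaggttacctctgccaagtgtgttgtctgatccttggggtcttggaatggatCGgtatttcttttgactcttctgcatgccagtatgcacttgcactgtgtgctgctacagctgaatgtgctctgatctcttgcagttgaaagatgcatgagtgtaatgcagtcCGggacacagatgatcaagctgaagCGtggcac
Plcl1 and Plcl2 held 33 and 43 CG dinucleotides and Plch1 held 5, where the median of all 33469 such windows was 7. A window was found for 9 of the 10 genes. In the other 6 of these, the number was 19 to 55. A window uses the listed start of its gene only, and RefSeq now lists 14 transcripts of Plch1. The 50 bases after the Plch1 start open with ATG. The listed start may thus be that of a coding sequence, and the count of 5 may not describe a promoter. The Plcl2 window holds an ATG before the listed start, with no stop codon in its frame up to the window end. Its count of 43 may therefore include coding sequence. The motif AAAGGTCA, the site that NR4A receptors are known to bind as monomers, was searched on both strands as the only motif. It was in 0 of the 9 windows and in 1.43% of all windows. With a share this low, 9 windows are too few for a 0 to tell anything about NR4A2 binding, which was not tested.

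Plch1, an eta isozyme known for its sensitivity to calcium (chromosome 2, 173640746 to 173727509), was at the edge of detection in Ad-GFP samples. There it had 0.0167, 0.0631, and 0.109 FPKM as lowest, median, and highest value, which stand for 2 to 13 fragments. After Ad-h-NR4A2 the values were 0.444, 1.15, and 3.38 FPKM, or 52 to 401 fragments. No Ad-h-NR4A2 sample reached down to the Ad-GFP samples, but the Ad-h-NR4A2 samples themselves differed by a factor of 7.62. Number 24 was the lowest of both groups. The ratio of means was 24.3 and the log2 fold change 3.12 (limma, SE 0.35 and adjusted p = 9.67e-06). The size of this change depends on the pseudocount. The log2 fold change was 1.16 with a pseudocount of 1 and 4.30 with 0.01, and the gene was called with either.

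The 3 beta isozymes, the enzymes downstream of Gq, did not move together. Plcb4 (chromosome 3, 135089809 to 135459237) was the most abundant phospholipase C gene in both groups. Its lowest, median, and highest values were 21.2, 22.9, and 27.2 FPKM in Ad-GFP samples and 36.5, 39.0, and 51.0 in Ad-h-NR4A2 samples. The groups did not overlap, and in both groups the highest 2 samples were numbers 25 and 27. The mean rose from 23.6 ± 2.49 to 42.0 ± 6.25 FPKM (SD, n = 6 each), by 0.82 on the log2 scale (limma, SE 0.10 and adjusted p = 1.44e-05).

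Plcb1, a beta isozyme also known for a nuclear pool (chromosome 3, 134211557 to 134908321), started far lower. It had 0.636, 0.963, and 1.33 FPKM as lowest, median, and highest Ad-GFP values, or 69 to 185 fragments, and 2.77, 2.99, and 3.98 FPKM after Ad-h-NR4A2, or 306 to 433 fragments. The groups did not overlap, and the ratio of means was 3.23. Its log2 fold change was 1.64 (limma, SE 0.18 and adjusted p = 7.3e-06). The transcripts of Plcb1 and Plcb4 lie next to each other on chromosome 3, 181487 bases apart, with 0 other listed transcripts in between.

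Plcb3, the remaining beta isozyme (chromosome 1, 229200438 to 229215707), had 4.72, 5.58, and 6.15 FPKM as lowest, median, and highest Ad-GFP values and 3.92, 4.73, and 5.02 after Ad-h-NR4A2. The groups overlapped, although the Ad-h-NR4A2 sample was lower in 6 of 6 pairs. The log2 fold change was -0.29 (limma, SE 0.09 and adjusted p = 0.0183), a ratio of means of 0.816. The ratio of Plcb4 to Plcb3 within a sample went from 3.50 to 5.75 after Ad-GFP to 7.54 to 12.4 after Ad-h-NR4A2, a difference of 1.12 on the log2 scale (SE 0.16, two-sided exact permutation p = 0.00216, adjusted 0.00271). Plcb1 gained on Plcb3 by 2.04 on that scale (SE 0.23, exact permutation p = 0.00216, adjusted 0.00271). Plcb1 also gained on Plcb4, by 0.92 (SE 0.20, exact permutation p = 0.00433, adjusted 0.00433), and this ratio overlapped between the groups.

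**Figure D3:**
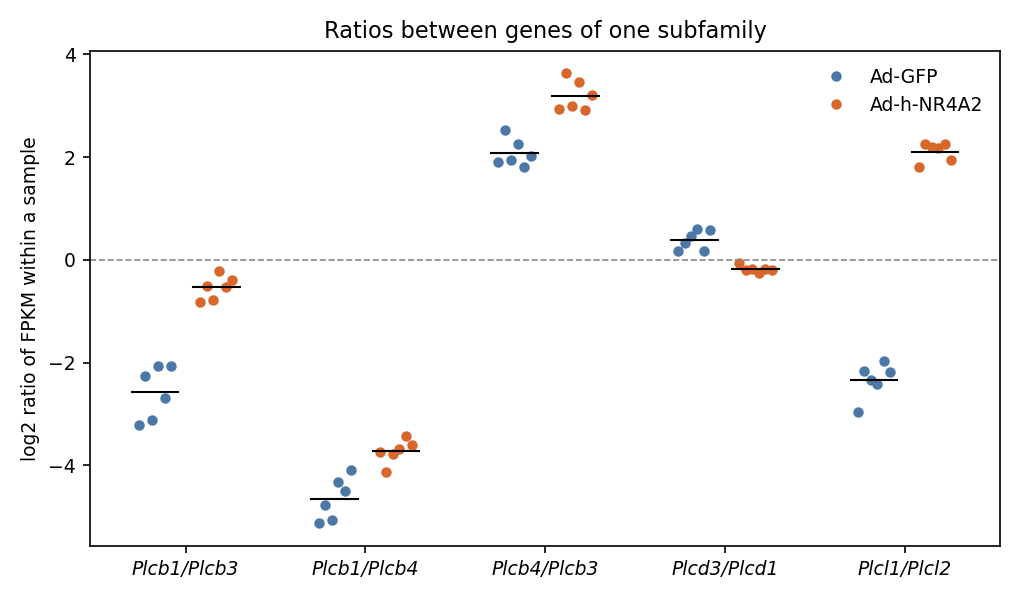
Log2 ratio of FPKM within each sample for the 5 pairs of genes of one subfamily, with 1 point per sample, 6 samples per group, and a black line at each group mean. The dashed line marks equal FPKM. Plcl1/Plcl2 crosses it from below and Plcd3/Plcd1 from above.

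Of the delta isozymes, which are known to be activated by calcium itself, Plcd3 (chromosome 10, 90937132 to 90957990) was downregulated. Its lowest, median, and highest values were 7.77, 8.90, and 11.9 FPKM in Ad-GFP samples and 5.29, 5.87, and 6.29 in Ad-h-NR4A2 samples. The groups did not overlap. The Ad-GFP samples spread more, with numbers 27 and 29 above 11 FPKM and the others below 10 FPKM. The mean fell from 9.52 ± 1.70 to 5.86 ± 0.392 FPKM (SD, n = 6 each), a ratio of 0.616 and, on the log2 scale, -0.67 (limma, SE 0.10 and adjusted p = 1.82e-04). Plcd1 (chromosome 8, 126970647 to 126991422) had 6.61, 7.20, and 8.01 FPKM as lowest, median, and highest Ad-GFP values and 6.04, 6.64, and 7.12 after Ad-h-NR4A2. Its log2 fold change of -0.12 did not pass (95% confidence interval -0.26 to 0.02, limma adjusted p = 0.163). Plcd3 exceeded Plcd1 by 1.12- to 1.52-fold in each Ad-GFP sample and amounted to 0.842 to 0.962 of it in each Ad-h-NR4A2 sample. This difference was -0.56 on the log2 scale (SE 0.08, two-sided exact permutation p = 0.00216, adjusted 0.00271).

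Plcg1, the isozyme recruited by receptor tyrosine kinases (chromosome 3, 162957126 to 162987842), had a median of 15.9 FPKM in both groups. Its range was 15.1 to 18.5 FPKM in Ad-GFP samples and 13.8 to 16.7 in Ad-h-NR4A2 samples, and the groups overlapped broadly. The log2 fold change was -0.07 with a 95% confidence interval of -0.21 to 0.07 (adjusted p = 0.441 from limma). Plce1, the isozyme that Ras and Rap proteins activate (chromosome 1, 264652842 to 264956664), had 8.33, 9.51, and 10.5 FPKM as lowest, median, and highest Ad-GFP values and 6.90, 7.41, and 10.5 after Ad-h-NR4A2. Ad-h-NR4A2 sample 24 was as high as the highest Ad-GFP sample, and the log2 fold change was -0.21 (95% confidence interval -0.43 to 0.02, limma adjusted p = 0.128). Without that sample it was -0.28 (adjusted p = 0.0208 from limma), and in the limma fit blocked by sample number the adjusted p was 0.0199. In both fits the change stayed below 1.5-fold.

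FPKM are per length, so the levels of the genes were set side by side. Each level rests on the 1 transcript listed for the gene, and transcripts not listed could alter the order. In Ad-GFP samples the order from the highest mean was Plcb4, Plcg1, Plcd3, Plce1, Plcd1, Plcl2, Plcb3, Plcl1, Plcb1, and Plch1. The ranges of neighbors overlapped for Plcd3 and Plce1, for Plcl2 and Plcb3, and for Plcl1 and Plcb1, and were separate for the others. After Ad-h-NR4A2 the order was Plcb4, Plcl1, Plcg1, Plce1, Plcd1, Plcd3, Plcb3, Plcl2, Plcb1, and Plch1, in which the steps from Plcb4 to Plcl1, from Plcg1 to Plce1, and from Plcd3 to Plcb3 were without overlap. Plcl1 thus moved from rank 8 to rank 2.

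The 10 genes together amounted to 79.8 ± 4.78 FPKM after Ad-GFP and to 110.8 ± 8.66 FPKM after Ad-h-NR4A2 (SD, n = 6 each). Of the difference of 31.0 FPKM, Plcb4 added 18.3 and Plcl1 added 17.7, while Plcd3 took away most (-3.65). Plcl1 held 1.00% to 1.88% of the summed FPKM in Ad-GFP samples and 15.1% to 19.2% in Ad-h-NR4A2 samples. The share of Plcb4 was 27.4% to 33.8% and then 33.7% to 43.6%. Together, both PLC-like genes held 8.66% ± 0.541 and 20.9% ± 1.45 (SD, n = 6). The other 8 genes, which encode active enzymes, summed to 72.8 ± 4.37 and 87.6 ± 6.20 FPKM (SD, n = 6). These sums and shares are a description and carry no test.

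**Figure D4:**
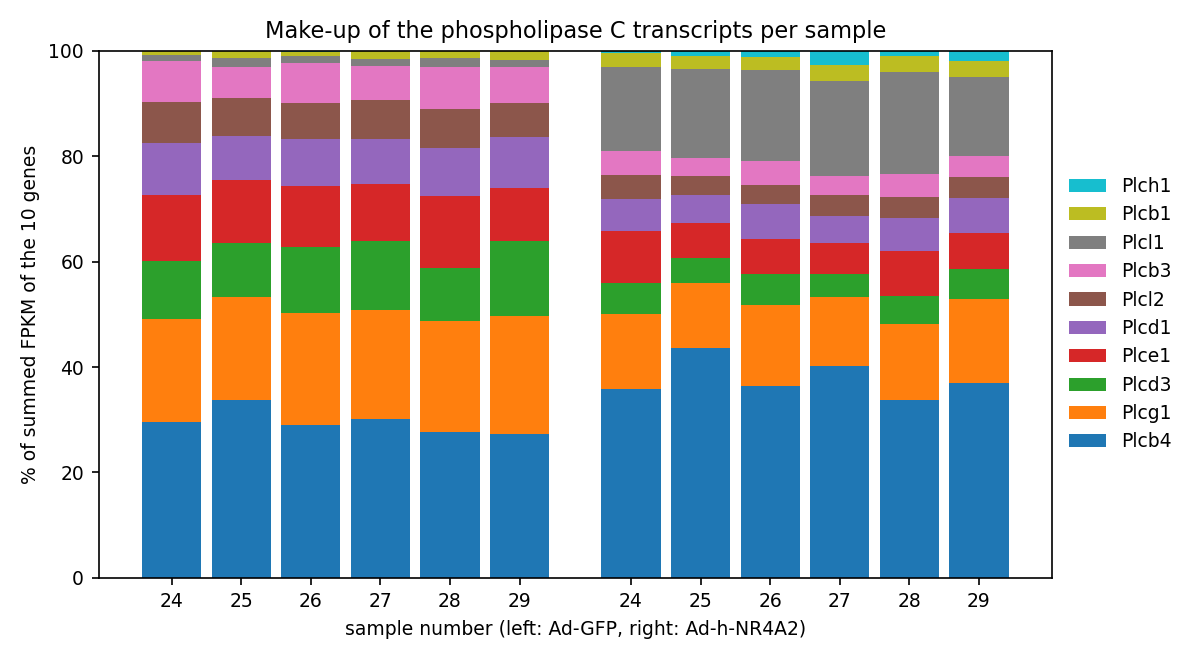
Share of each gene in the summed FPKM of the 10 phospholipase C genes, in percent, with 1 bar per sample, 6 Ad-GFP samples on the left and 6 Ad-h-NR4A2 samples on the right. The gray band is Plcl1, which reached 15.1% to 19.2% after Ad-h-NR4A2.

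Variation within groups differed between the genes. The coefficient of variation was 5.22% to 17.9% for Plcb3, Plcd1, Plcd3, Plce1, Plcg1, Plcl2, and Plcb4 in either group. In Ad-GFP samples it was 20.8% for Plcl1 and 31.0% for Plcb1, and in Ad-h-NR4A2 samples it was 14.1% and 14.4%. Plch1 varied most, by 54.3% and 67.5%.

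For each gene, the gene most like it among those with a mean of at least 1 FPKM was sought by the mean absolute difference of log2(FPKM + 0.1) over the 12 samples, each gene centered on its own mean. For Plcl1 this was Cd55 (0.15), which went from 3.29 to 49.9 FPKM, and for Plch1 it was Ttc17 (0.27), which went from 15.1 to 126.0 FPKM. Plcb1 was closest to Myo1e (0.14), Plcb4 to Eif4e3 (0.06), and Plcd3 to Gk (0.08). The closest genes were Ncoa1 for Plcb3, Nedd4 for Plcl2, Svil for Plce1, Stau2 for Plcd1, and Anxa6 for Plcg1, at distances of 0.03 to 0.05.

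Other genes with phospholipase C domains were low. Plcd4, the highest of them, had a mean of 1.64 FPKM in Ad-GFP samples, above the means of Plcl1, Plcb1, and Plch1 in that group. It was not among the genes chosen and is not in their order, sums, or shares. Of 8 listed, 6 were in the files and 3 were above 0 in all samples. Plcxd2, a protein with the catalytic X domain alone, rose from 0.0271 to 0.507 FPKM, a ratio of means of 18.7. The change of log2(FPKM + 0.1) was 2.19 (limma, SE 0.20 and adjusted p = 1.73e-06). The pseudocount makes this smaller, since it exceeds the highest Ad-GFP value of 0.0407 FPKM. The Ad-h-NR4A2 values of Plcxd2, 0.264 to 0.865 FPKM, were all above the Ad-GFP values. Plcd4, a delta isozyme, ranged from 0.824 to 2.83 FPKM in Ad-GFP samples and from 0.549 to 2.04 after Ad-h-NR4A2 and did not pass (adjusted p = 0.209 from limma). Plcg2 was at most 0.0711 FPKM in any sample. Plcz1, the sperm isozyme, is listed at 0 in all 12 samples.

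Genes that act before and after phospholipase C were taken from 9 lists of 131 genes, the other phospholipase C genes included, of which 101 were tested. Of these, 29 were called (28.7%, where 15.2% of all genes tested were), 16 upregulated and 13 downregulated. By the adjusted p alone, 47 passed (46.5%), nearer to the 40.9% of all genes. Their median log2 fold change was -0.07. The lists include genes that the study selected from these same samples.

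Receptors coupled to Gq had the most calls. Of 17 tested, 4 were upregulated (7.94% of all genes were) and 7 downregulated (7.24% of all genes were). Together these made 64.7%, where 15.2% of all genes were called. The median log2 fold change of the list was -0.31. S1pr3, a receptor for sphingosine 1-phosphate, fell from 7.89 ± 1.64 to 1.89 ± 0.638 FPKM (SD, n = 6 each) and had the largest fall (log2 fold change -2.04, SE 0.20). Htr2a, a serotonin receptor, and P2ry1, a receptor for ADP, fell with log2 fold changes of -1.81 (SE 0.16) and -1.64 (SE 0.11). The adrenoceptor genes Adra1a, Adra1b, and Adra1d, named after their values were seen, were among the 7, with log2 fold changes of -1.41 for Adra1a and -1.42 for Adra1d. Ptgfr, the receptor for prostaglandin F and the most abundant of the list, fell from 197 ± 73.0 to 121 ± 24.3 FPKM (SD, n = 6 each), and its groups overlapped. Without Ad-GFP sample 27, the highest, its ratio of 0.709 was no longer past the fold limit. Ednra, the type A endothelin receptor, rose from 10.3 ± 1.25 to 20.6 ± 3.19 FPKM (SD, n = 6 each). F2rl1 and F2r, which are cut and activated by proteases, rose with log2 fold changes of 1.39 (SE 0.15) and 0.69 (SE 0.22). F2rl1 was low, at 0.0745 ± 0.0312 and 0.355 ± 0.0735 FPKM (SD, n = 6 each). F2r overlapped between groups, and its call was lost without Ad-GFP sample 24 or 28 or Ad-h-NR4A2 sample 25, 26, or 27 (adjusted p = 0.0501 to 0.0538, limma), as well as without the filter on low values (adjusted p = 0.058).

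None of the Gq family alpha subunits, which pass the signal from these receptors to the beta isozymes, was called. Gna14 and Gna15 were at 0 in some samples and not tested. Gna11, the more abundant of the tested subunits, had 23.8 ± 1.39 and 21.8 ± 2.38 FPKM (SD, n = 6 each), with a log2 fold change of -0.13 that did not pass. Gnaq passed, at -0.35 on the log2 scale (limma, adjusted p = 0.00365), but stayed below the fold limit. Among 10 partners of Plce1, 1 was called (10.0%, where 15.2% of all genes were). Rap1b, a small GTPase, rose from 65.1 ± 2.79 to 139.8 ± 17.5 FPKM (SD, n = 6 each), and Rhoa, the most abundant, went from 277 ± 5.45 to 226 ± 5.98 FPKM, below the fold limit.

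Of 17 tested genes that make or carry PIP2 and its precursors, 1 was called (5.88%, where 15.2% of all genes were). By the adjusted p alone, 2 were higher and 6 lower, and these 8 of 17 (47.1%) were near the share of all genes (40.9%). Pip5k1b, a kinase that makes PIP2, fell from 9.78 ± 1.06 to 5.98 ± 0.729 FPKM (SD, n = 6 each), while Pitpna, a lipid transfer protein and the most abundant, had 81.8 ± 3.99 and 84.9 ± 4.49 FPKM.

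On the IP3 side, 2 of 14 genes were upregulated and 1 downregulated (21.4% called, where 15.2% of all genes were). Inpp1, a phosphatase that breaks down inositol phosphates, rose from 14.3 ± 1.90 to 34.1 ± 11.1 FPKM (SD, n = 6 each). Itpr1, an IP3 receptor listed with 3 transcripts, rose from 5.61 ± 0.511 to 8.48 ± 0.669 FPKM for the most abundant one. Its ratio of 1.51 fell to between 1.47 and 1.49 without Ad-GFP sample 24 or 25 or Ad-h-NR4A2 sample 27 or 28, which ended the call. The call was also lost on the TPM scale, where values are rescaled to the same sum per sample (ratio 1.49). Itpr3, another IP3 receptor, was low and fell from 0.311 ± 0.177 to 0.148 ± 0.0587 FPKM with overlapping groups. Its call was lost without Ad-GFP sample 26 or 29 or Ad-h-NR4A2 sample 24, 25, 27, or 28 (adjusted p = 0.0511 to 0.0766, limma). It was also lost with a pseudocount of 1 (log2 fold change -0.18, adjusted p = 0.0644, limma) and without the filter on low values (adjusted p = 0.0754, limma). Inpp5a, the phosphatase that ends the IP3 signal, was the most abundant of the list and had 184 ± 7.49 and 175 ± 8.47 FPKM.

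On the diacylglycerol side, Dgka and Dgkz, kinases that remove diacylglycerol, rose from 3.29 ± 0.287 to 5.53 ± 0.642 FPKM and from 10.9 ± 0.894 to 17.5 ± 1.74 FPKM (SD, n = 6 each). Another kinase, Dgkb, fell from 7.38 ± 2.31 to 3.77 ± 0.787 FPKM with overlapping groups. These 3 were the calls among 10 genes (30.0%, where 15.2% of all genes were called). Of 15 tested effectors of diacylglycerol, 3 were upregulated and 3 downregulated (40.0% called, all genes 15.2%). Among these calls, Prkca and Prkcq had been picked by the study from the same libraries. Prkca, a protein kinase C, rose from 6.47 ± 0.551 to 14.2 ± 2.05 FPKM (SD, n = 6 each). The Ras exchange factors Rasgrp2 and Rasgrp1 rose with log2 fold changes of 0.82 (SE 0.21) and 0.64 (SE 0.19), both with overlapping groups. The protein kinases C Prkcq, Prkcd, and Prkce fell with log2 fold changes of -1.34 (SE 0.24), -0.96 (SE 0.19), and -0.66 (SE 0.11). Prkcq was low, at 0.425 ± 0.195 and 0.0966 ± 0.0321 FPKM (SD, n = 6 each). Prkcd overlapped between groups, and Prkce was no longer past the fold limit without Ad-h-NR4A2 sample 29 (ratio 0.668). Rasgrp3, the most abundant effector, had 82.3 ± 24.4 and 89.0 ± 21.9 FPKM and did not pass.

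Upstream of Plcg1, 3 of 13 genes were upregulated and 0 were downregulated (23.1% called, where 15.2% of all genes were). By the adjusted p alone, 3 were higher and 1 lower, and the median log2 fold change of the list was -0.03. The 3 calls were the receptor Fgfr3, from 0.371 ± 0.0914 to 1.68 ± 0.258 FPKM, the receptor Met, from 0.258 ± 0.0790 to 0.539 ± 0.223 FPKM (SD, n = 6 each), and the kinase Src, with a log2 fold change of 0.63 (SE 0.20). Met and Src overlapped between groups. The call of Met was lost without Ad-GFP sample 27 or 28 or Ad-h-NR4A2 sample 25, 27, or 29 (adjusted p = 0.0522 to 0.063, limma), as well as without the filter on low values (adjusted p = 0.0636). Pik3ca, the most abundant gene of the list, had 18.3 ± 0.524 and 19.3 ± 1.06 FPKM.

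**Figure D5:**
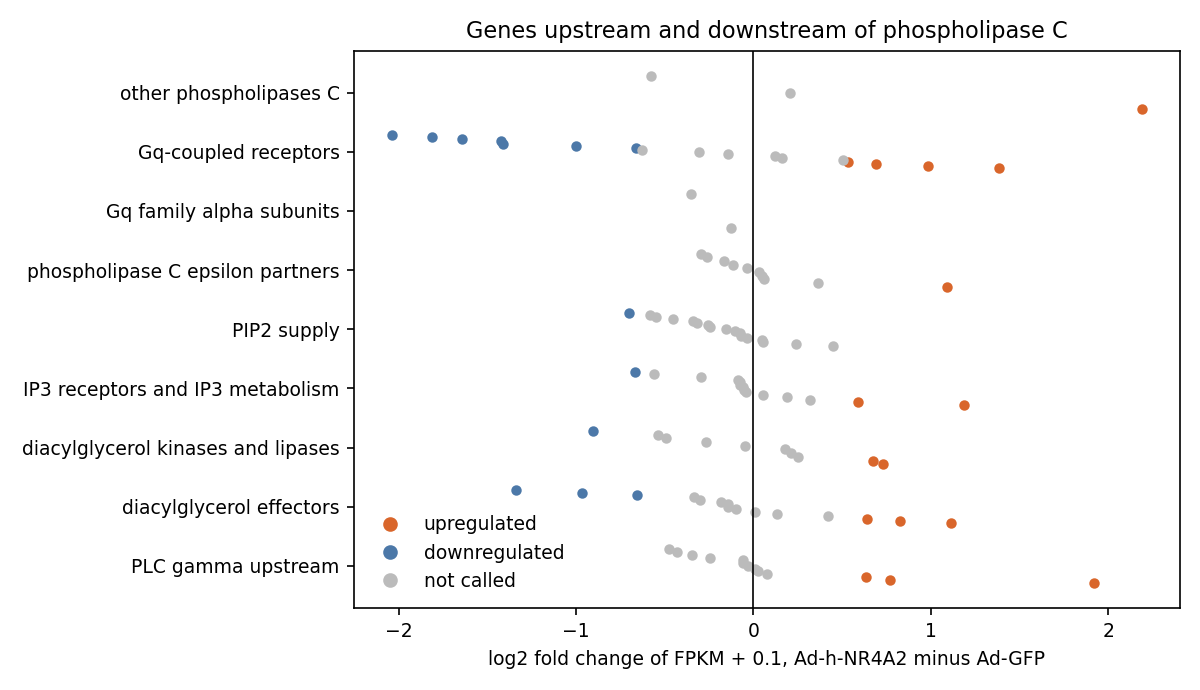
Log2 fold change of FPKM + 0.1, Ad-h-NR4A2 minus Ad-GFP, for the 101 tested genes of the 9 lists, with 1 point per gene. Orange points are upregulated, blue points downregulated, and gray points not called. The calls are densest among Gq-coupled receptors, with 4 up and 7 down (64.7% of those tested, all genes 15.2%). These calls include the alpha-1 adrenoceptor genes, which the study picked from the same libraries.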

How the data were processed

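RNA of 12 ARVM samples, 6 per group, was sequenced in a single pooled run of stranded mRNA libraries. Per the paper's methods, the authors aligned reads to Rn5 (RefSeq) with STAR and quantified RefSeq transcripts with Cufflinks. The deposited FPKM values, scaled by the authors to transcript length and mapped fragments, were used as they are. Confidence limits equal the FPKM in 225016 of 225024 values and were not used. Groups and sample numbers come from the sample titles. File starts count from 0 and were raised by 1.

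A gene was represented by its most abundant transcript row, and 10950 genes above 0 in all 12 samples were fitted with limma 3.58.1 (trend) in R 4.3.3, on log2(FPKM + 0.1), without a block since the statistics of the study are unpaired. The pseudocount understates the change of low genes. The adjusted p of this fit is the one given throughout, and its interval level is 95%. Single ratios were compared by exact permutation over 924 splits. These splits ignore the sample numbers that both groups share, and no paired version was run. Python 3.11.15, pandas 2.3.3, NumPy 2.4.6, and Matplotlib 3.10.9 were used, and the fit was tested on simulated data. The genes, lists, and tests were chosen with earlier results of these data known. From the lists, up to 3 calls per direction with the largest log2 fold change and the most abundant gene were named. Plch1, Prkca, Prkcq, Rap1b, Fgfr3, and the alpha-1 adrenoceptor genes were also picked by the study from these libraries.

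Depth and fragments were recovered from low FPKM, which come in steps of 1 fragment given a length shortened by 156 to 166 bases. Of values up to 6 fragments, 99.3% to 99.9% per sample were whole within 0.05. Fragments cover counting error only. Same-numbered samples deviated together from their group means (correlation across 10950 genes 0.347 to 0.623 in 6 pairs). All 6 Ad-GFP samples correlated best with the Ad-h-NR4A2 sample of their own number. What the number marks is not given in the sources used here. The study describes 6 independent experiments with different rats. P-values measure the spread between these samples.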

Additional observations from a re-analysis of the deposited data

Results flagged for a closer look

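None of the 10 phospholipase C genes had a sample that lay far from its group. Among 43 genes (86 groups of 6 samples), a single sample lay far from the other 5 in 5 groups, judged by its gap to the nearest sample as a share of the whole range. Chance gives about 1 in 20 groups. Ptgfr was highest in Ad-GFP sample 27 (334 FPKM, the others 132 to 207, share 0.630). Itpr3 was highest in Ad-GFP sample 29 (0.654 FPKM, the others 0.199 to 0.352, share 0.664), as was Fgfr3 (0.543 FPKM, the others 0.279 to 0.378, share 0.625). Rap1b was lowest in Ad-h-NR4A2 sample 24 (106 FPKM, the others 139 to 154, share 0.673). Rasgrp1 was lowest in Ad-h-NR4A2 sample 28 (0.514 FPKM, the others 1.07 to 1.32, share 0.688).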

How the results depend on the processing

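The count of 5 called phospholipase C genes was the same under a pseudocount of 1 or 0.01, without the filter on zeros, on the TPM scale, after quantile normalization, with a constant prior in limma, with transcripts summed, and with every transcript row tested by itself, the last chosen after seeing the data. It was 5 to 5 with each sample left out in turn and 4 among genes with a mean of at least 1 FPKM, which Plch1 does not reach. Without a fold limit 7 passed, and with a fold limit of 2 only 3 (Plcl1, Plch1, and Plcb1). Plcb4 and Plcd3 lie between both limits. For the 9 lists, 29 calls (28.7%, all genes 15.2%) became 47 without a fold limit (46.5%, all genes 40.9%) and 15 with a limit of 2 (14.9%, all genes 7.33%), and ranged from 25 to 30 with a sample left out. With a replicate block for the numbers 24 to 29, 5 phospholipase C genes and 31 genes of the lists were called, the log2 fold change of Nr4a2 stayed at 9.10, and of the 10 genes the block moved Plce1 alone across the limit of the adjusted p (log2 fold change -0.21, adjusted p = 0.0199, limma). Plce1 also passed without Ad-h-NR4A2 sample 24 (-0.28). No log2 fold change of the 10 genes reversed under any of these settings. The log2 fold change of Plcl1 ranged from 3.20 to 4.03, and adjusted p from 9.35e-11 to 3.52e-08 (limma). Each gene is listed with 1 transcript, where RefSeq now lists 1 (Plcl1) to 22 (Plcb4), so that isoforms could not be followed.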
